A study of Mus musculus with 29 samples.

Results

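The 10 genes described here are core members of the integrated stress response and the unfolded protein response: Atf4, Ddit3, Atf3, Trib3, Chac1, Asns, Ddit4, Xbp1, Hspa5 and Herpud1. They were chosen by name and followed through every group of a mouse microarray study of endoderm cultures, as 10 of 20956 genes with a named probe on the array. All 10 passed the filter on dim probes, which left 16332 genes for testing, and each of their 11 probes was well above background on all 29 arrays (Atf4 has 2 probes, and the brighter one is used unless stated). The arrays measured total RNA of male cell lines in 9 groups. Diff (3 arrays) are cells of the double reporter embryonic stem cell line HRHnG kept for 7 to 8 days in Activin, LIF and the inhibitor CHIRON. Expanding Diff gave the endoderm cultures called nEnd, sampled as Mid (3) at passage 7 to 10 and Late (3) at passage 14 to 15. ESC (3) are undifferentiated HRHnG cells in 2i, a pair of kinase inhibitors, with LIF. XEN (3) are extraembryonic endoderm cells of a line of their own in XEN medium. ADE (4) are epiblast stem cells taken towards anterior definitive endoderm for 4 days, and EpiSC (3) is the stable epiblast stem cell culture they came from, made from stem cells; the labels spell the line of both as HRHNG, which was read as HRHnG. NACL (4) and 2iL (3) are stem cells kept for at least 3 passages in N2B27 with Activin, CHIRON and LIF or in 2i with LIF, from the lines HVMC, E14 and E14-NanogGFP. Each Mid and Late replicate is its own differentiation and passage series, per the design text. What separates replicates elsewhere is not given in the sources used here, so p-values measure only the spread between these samples, which may be technical.

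Both responses adjust protein synthesis to demand. In the integrated stress response, kinases that sense amino acid shortage, viral RNA, heme deficiency or misfolded protein phosphorylate the initiation factor eIF2, which lowers general translation and raises translation of the transcription factor ATF4. ATF4 then switches on genes for amino acid supply and, under prolonged stress, genes such as Ddit3 (CHOP), Trib3 and Chac1. In the unfolded protein response, the endoplasmic reticulum (ER) sensors IRE1, ATF6 and PERK detect misfolded protein: IRE1 splices Xbp1 mRNA, ATF6 is cut to a transcription factor, and both raise chaperones such as Hspa5 and degradation components such as Herpud1, while PERK acts through eIF2. Secretory cells use the ER branch without acute stress, and endoderm of the yolk sac is a secretory tissue. The arrays measured mRNA, not eIF2 phosphorylation, ATF4 protein or Xbp1 splicing.

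Levels are given as log2 signal after background correction, less the array's own 75th percentile, so 0 is the level of a probe at that percentile. Different genes are not set against each other, since probes differ in brightness. The arrays form 2 sets, apart in slides, scan days and software version: ESC, Diff, Mid, Late and XEN in the first, and ADE, EpiSC, NACL and 2iL in the second. Between 50.1% and 80.1% of spots were well above background per array, and replicates correlated at 0.956 to 0.988 over the genes tested. As a check of the labels, the summed level of marker genes is given on the log2 scale. The 8 genes of primitive and extraembryonic endoderm gave 7.64 to 8.32 in Diff, Mid, Late and XEN, against -1.43 to -1.09 in ESC. They also gave 6.73 to 7.35 in ADE. The 7 genes of anterior definitive endoderm gave 8.25 to 8.78 in ADE, against 3.07 to 3.34 in EpiSC. Of these, Foxa2 and Sox17 are also in the first list. The 7 genes gave 5.29 to 6.78 in Diff, Mid, Late and XEN, so both lists were high in all endoderm groups. Of the definitive endoderm list, 5 of 7 genes were well above background on all Mid and Late arrays, and Cer1 and Gsc on none of them. Of 8 stem cell markers, 5 were well above background on all XEN arrays (sum 5.08 to 5.52), and Nanog and Sox2 on none. The 7 markers of fibroblasts or feeder cells summed to 4.08 to 4.70 in EpiSC and to 1.96 to 4.14 in ADE, against 0.54 or less in the first set.

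Sequences upstream of the start site show which of the 10 genes carry the elements these responses are known to use. The CARE element (TGATGNAA) is bound by ATF4 with C/EBP partners, and the ER stress elements ERSE (CCAAT and CCACG with 9 bases between) and ERSE-II (ATTGG and CCACG with 1 base between) are bound by ATF6 and XBP1. All 10 promoters were found in the RefSeq table of mouse build GRCm38.p6, and the 250 bases before each start were searched on both strands. The search found an element in 5 of the 10, and these 5 are printed 5′ to 3′ with the match in capitals. A match is a description of letters, not of binding.
Asns, chr6:7693210-7693459, minus strand: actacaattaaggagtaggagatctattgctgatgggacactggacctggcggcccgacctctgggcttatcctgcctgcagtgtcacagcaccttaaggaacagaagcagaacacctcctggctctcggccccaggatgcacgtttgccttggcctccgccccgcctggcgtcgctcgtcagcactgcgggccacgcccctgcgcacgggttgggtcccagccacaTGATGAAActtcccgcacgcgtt
Chac1, chr2:119350992-119351241, plus strand: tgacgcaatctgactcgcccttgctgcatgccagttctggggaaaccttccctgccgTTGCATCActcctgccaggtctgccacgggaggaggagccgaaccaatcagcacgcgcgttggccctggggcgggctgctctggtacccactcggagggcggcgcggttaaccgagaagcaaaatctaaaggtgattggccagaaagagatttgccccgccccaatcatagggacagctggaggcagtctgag
Atf3, chr1:191183334-191183583, minus strand: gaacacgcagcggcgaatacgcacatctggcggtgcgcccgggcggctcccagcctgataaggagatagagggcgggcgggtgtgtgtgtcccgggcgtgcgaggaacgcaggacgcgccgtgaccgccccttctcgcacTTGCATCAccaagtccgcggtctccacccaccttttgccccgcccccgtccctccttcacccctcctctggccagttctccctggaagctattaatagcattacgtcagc
Hspa5, chr2:34771840-34772089, plus strand: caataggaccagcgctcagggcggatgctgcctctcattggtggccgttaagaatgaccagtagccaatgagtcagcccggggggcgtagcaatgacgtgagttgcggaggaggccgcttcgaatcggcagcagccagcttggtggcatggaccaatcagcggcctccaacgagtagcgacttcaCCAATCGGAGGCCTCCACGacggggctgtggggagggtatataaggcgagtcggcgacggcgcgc
Herpud1, chr8:94386179-94386428, plus strand: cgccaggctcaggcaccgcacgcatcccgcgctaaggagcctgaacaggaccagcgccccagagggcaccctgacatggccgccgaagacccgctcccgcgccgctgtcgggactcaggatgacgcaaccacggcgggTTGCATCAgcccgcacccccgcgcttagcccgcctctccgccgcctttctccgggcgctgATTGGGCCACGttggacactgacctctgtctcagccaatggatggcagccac
The capitals in Asns are a CARE read along the gene, TGATGAAA, 23 to 16 bases before the start. The capitals in Chac1 and Atf3 are the CARE read on the other strand, TTGCATCA, 193 to 186 bases and 110 to 103 bases before the start. Hspa5 holds an ERSE 65 to 47 bases before its start. Herpud1 holds both kinds, a CARE on the other strand at 112 to 105 bases and an ERSE-II at 52 to 42 bases. In the same window, a CARE was present in 3.45% of 32851 promoters, an ERSE in 0.113% and an ERSE-II in 0.0304%. Atf4, Ddit3, Trib3, Ddit4 and Xbp1 had no match to these letters in this window, and the UPRE (TGACGTGG, in 0.563% of promoters) and the CRE (TGACGTCA, in 1.55%) were in none of the 10.

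Endoderm induction from naive stem cells (Diff minus ESC) split the 10 genes. The ER genes Xbp1, Hspa5 and Herpud1 and the transcription factor gene Atf3 were higher in Diff, while Atf4, Trib3, Chac1 and Asns were lower. Ddit3, which ATF4 also switches on, was not called, and neither was Ddit4. In all, 4 genes passed the test as higher and 4 as lower, and the groups did not overlap for these 8; over all genes, 42.4% were called (23.5% higher, 18.9% lower) and 56.3% had groups without overlap. Of all calls, 55.4% were higher, or 74.1% with arrays centred on their median. The median size of the difference was 1.74 for the 10 genes and 0.66 for all genes tested. In the same arrays, all 8 stem cell markers were well above background on every Diff array (sum 8.98 to 9.30 in Diff, 9.34 to 9.70 in ESC), 6 primed epiblast markers summed to 6.32 to 6.90 in Diff and 3.64 to 4.05 in ESC, with T well above background on no Diff array, and 4 neural markers to 1.04 to 1.91 in Diff and 2.19 to 2.84 in ESC. Their part in the differences was not tested. A lower level can reflect fewer cells that express a gene or less RNA per cell, which bulk arrays cannot tell apart.

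Atf4, the transcription factor at the centre of the integrated stress response, had log2 levels of 6.88, 6.43 and 6.60 in Diff, against 7.32, 7.70 and 7.98 in ESC. Every Diff array lay below every ESC array, a log2 difference of -1.03 ± 0.22 (SE; limma's adjusted p = 0.00053), or 2.04-fold lower. The second Atf4 probe, dimmer on every array, gave -1.71. The Atf4 call was lost with arrays centred on their median (-0.67, adjusted p = 0.13) and with slide as a fixed block (adjusted p = 0.07).

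Trib3, a pseudokinase that restrains ATF4 signalling, was at 1.82, 1.42 and 1.95 in Diff, against 4.26, 5.12 and 5.28 in ESC. The groups were far apart, with Trib3 8.92-fold lower in Diff (log2 difference -3.16 ± 0.63, adjusted p = 0.00029). Chac1, an enzyme that breaks down glutathione and a late target of ATF4 and CHOP, was at 0.18, 1.27 and 1.20 in Diff, against 3.54, 3.89 and 3.94 in ESC. Its difference was -2.91 ± 0.94 (adjusted p = 0.015), or 7.50-fold lower, and it passed neither without Diff replicate 1 (adjusted p = 0.063) nor with the first scan day alone (adjusted p = 0.058). Asns, asparagine synthetase, was at 5.69, 6.12 and 6.35 in Diff, against 7.75, 8.08 and 7.68 in ESC. It was 3.44-fold lower (-1.78 ± 0.21, adjusted p = 3.5e-07), and no array of one group reached the other.

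Ddit3, which encodes the death-promoting factor CHOP, did not follow its partners past the test. It was at 1.58, 0.21 and 0.32 in Diff, against 1.29, 1.87 and 2.19 in ESC, so that Diff replicate 1 lay inside the ESC range (adjusted p = 0.14). Ddit4, an inhibitor of mTORC1 also known as REDD1, was at 4.37, 5.37 and 5.07 in Diff, against 3.99, 3.83 and 5.31 in ESC, again with overlap (adjusted p = 0.56).

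Atf3, a stress-induced relative of ATF4, went the other way. It was at 3.10, 3.55 and 3.76 in Diff, against -1.59, -0.52 and -0.33 in ESC, and was 19.5-fold higher (4.28 ± 0.64, adjusted p = 9.5e-06). Among the 10 genes this was the largest difference in Diff minus ESC. Xbp1, the factor that IRE1 activates, was at 6.51, 6.12 and 5.95 in Diff, against 3.99, 3.99 and 3.63 in ESC, with a wide gap between the groups. It was 5.01-fold higher (2.33 ± 0.24, adjusted p = 4.9e-08).

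Hspa5, the ER chaperone BiP, was at 6.86, 6.84 and 6.90 in Diff, against 5.09, 5.13 and 5.31 in ESC. Replicates of Diff differed by less than 0.1 for this gene, and the difference was 1.69 ± 0.29 (adjusted p = 4.3e-05), or 3.22-fold. Herpud1, an ER membrane protein of the degradation pathway, was at 3.96, 3.53 and 2.93 in Diff, against 1.79, 2.28 and 2.01 in ESC (1.45 ± 0.36, adjusted p = 0.002; 2.73-fold higher). Within each of the 2 scan days, all 8 called genes kept their direction, which followed from arrays without overlap between the groups.

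**Figure D1:**
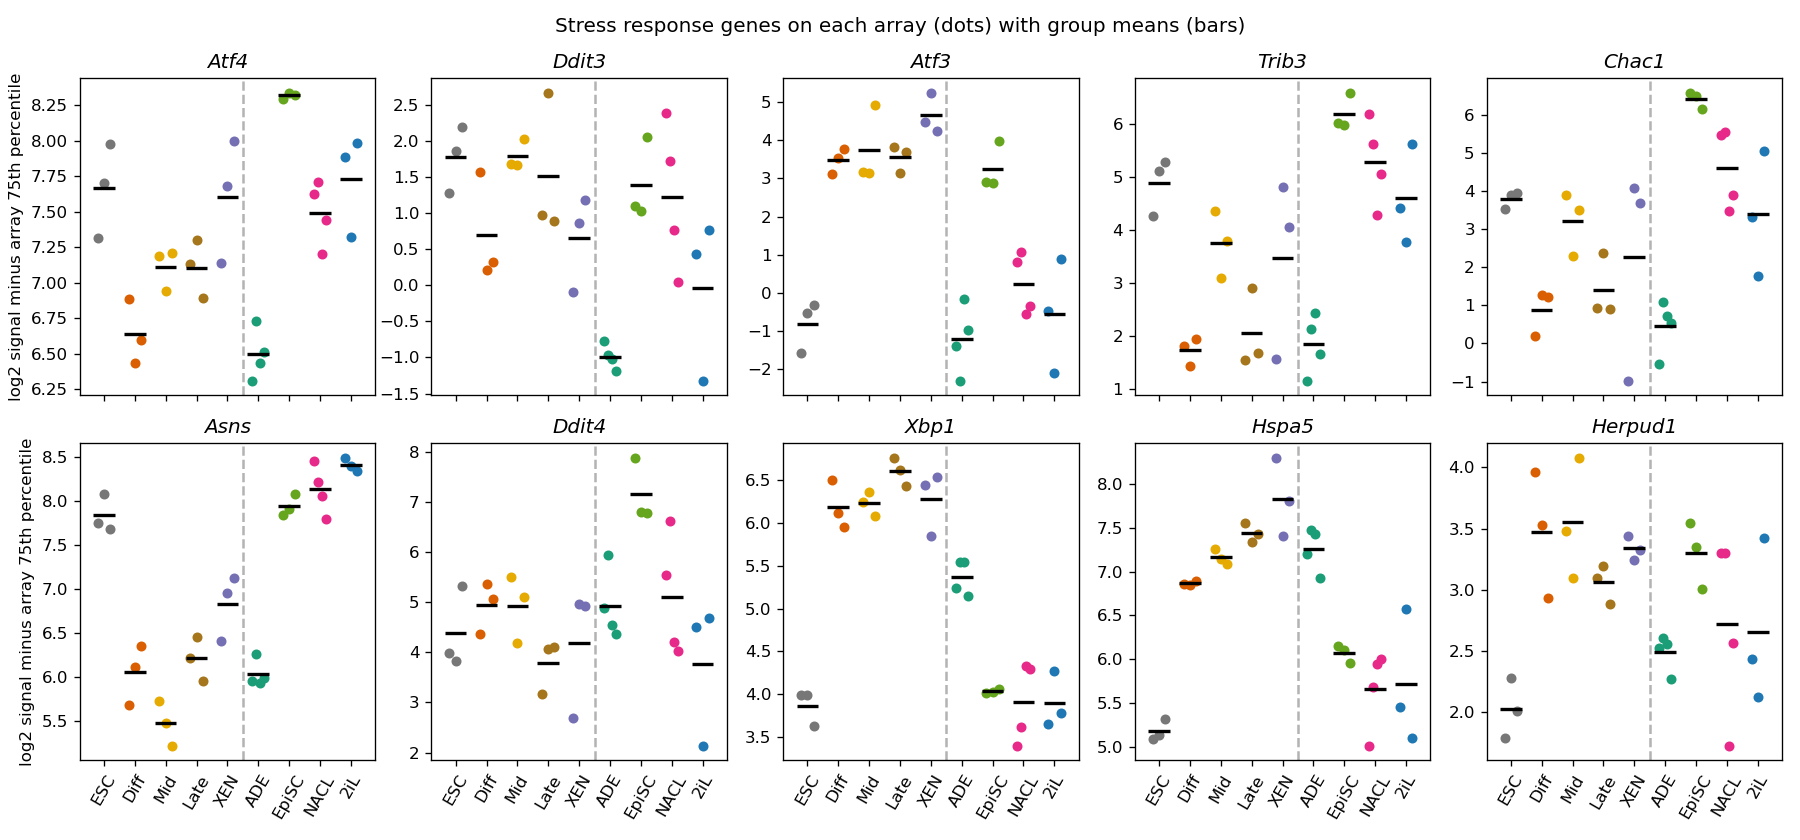
Log2 signal minus the array's 75th percentile (vertical axes, a separate scale for each gene) for the 10 genes on every array; dots are arrays, bars are group means, and the dashed line parts the 2 array sets. Xbp1 and Hspa5 are high in Diff, Mid, Late, XEN and ADE, while Trib3 and Chac1 are high in EpiSC and low in Diff, Late and ADE.

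Some wider lists of genes in the same pathways moved in the same 2 directions in Diff minus ESC. Amino acid supply genes were mostly lower, and ER chaperone and degradation genes mostly higher. The synthetase, regulator and eIF2 lists were less uniform. Of 17 tested ATF4 targets in amino acid supply, 11 were lower and 1 higher (median -1.31, against -0.04 for all genes). Cth, which makes cysteine, fell by 4.33 and the serine enzyme gene Psat1 by 3.18, while the glutamine transporter gene Slc38a2 rose by 1.79. Of 12 aminoacyl-tRNA synthetase genes, 6 were lower, with Aars at -1.62 and Cars at -1.56, and 1 was higher (Wars, 0.91); with median centring only 2 stayed lower. Of 15 further regulators downstream of ATF4, 5 were lower and 4 higher, with the stress cofactor gene Nupr1 at -4.68 and the secreted factor gene Stc2 at 3.51.

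Most ER chaperone and degradation genes were higher in Diff than in ESC. Of 23 genes for ER chaperones and folding enzymes, 15 were higher and 0 lower (median 1.01; 14 and 1 under quantile normalization), including the co-chaperone gene Dnajc3 (1.99 ± 0.29) and the disulphide isomerase family gene Txndc5 (1.98 ± 0.21). Of 22 genes of ER-associated degradation and translocation, 20 were higher and 0 lower (median 1.17), led by Sec24d, a coat component of ER export vesicles (2.07 ± 0.26). Among 13 sensor genes 6 were higher and 2 lower (Mbtps2 at -0.84 and Atf6b at -0.75), and Creb3l1, an ER-anchored transcription factor of secretory cells, stood at 4.18 in Diff and -0.54 in ESC on average (4.72 ± 0.42, adjusted p = 4.2e-09). Eif2ak3, which encodes the ER stress kinase PERK, was higher as well (1.94 ± 0.23, adjusted p = 5e-07), as 1 of 2 higher and 1 lower among 15 genes for eIF2, its kinases and its exchange factor (2 and 4 under quantile normalization). In cytosolic heat shock genes 4 of 12 were higher and 0 lower, and in hypoxia genes 2 of 14 higher and 1 lower; the 2 higher ones, P4ha2 (4.60) and P4ha1 (3.69), encode collagen prolyl hydroxylase subunits of the ER.

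Endoderm induction from primed cells (ADE minus EpiSC) went with lower levels of all 7 genes of the integrated stress response, Atf3 included, and higher levels of Xbp1 and Hspa5. Of the 10 genes 7 were lower and 2 higher in ADE, and none of the 10 had overlapping groups; over all genes 37.6% were called (16.9% higher, 20.7% lower) and 47.7% did not overlap. The median size was 2.06 for the 10 genes and 0.51 for all genes. Chac1 was at -0.53, 1.09, 0.73 and 0.54 in ADE, against 6.57, 6.49 and 6.13 in EpiSC, a 61.4-fold lower level (-5.94 ± 0.88, adjusted p = 1.1e-05) and the largest difference of any of the 10 genes in the 8 comparisons between groups. Trib3 was at 1.15, 2.12, 2.42 and 1.65 in ADE, against 6.02, 5.97 and 6.59 in EpiSC, or 20.5-fold lower (-4.36 ± 0.59, adjusted p = 3.7e-06).

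Atf3 was lower in this induction, at -1.40, -2.31, -0.16 and -0.97 in ADE, against 2.90, 2.88 and 3.97 in EpiSC (-4.46 ± 0.60, adjusted p = 3.2e-06; 22.0-fold). Atf4 was at 6.31, 6.73, 6.44 and 6.51 in ADE, against 8.30, 8.34 and 8.32 in EpiSC (-1.82 ± 0.20, adjusted p = 2.8e-07), and its second probe gave -2.12. The EpiSC arrays agreed closely on Atf4, within 0.1. Asns was at 5.95, 6.27, 5.93 and 5.99 in ADE, against 7.84, 7.91 and 8.08 in EpiSC, or 3.75-fold lower (adjusted p = 7.5e-08). Ddit3 was at -0.78, -0.96, -1.02 and -1.19 in ADE, against 1.11, 1.03 and 2.06 in EpiSC, and unlike in Diff it passed the test (-2.39 ± 0.54, adjusted p = 0.0011). Ddit4 was at 4.87, 5.93, 4.54 and 4.37 in ADE, against 7.88, 6.80 and 6.78 in EpiSC (-2.22 ± 0.68, adjusted p = 0.012), a call that was lost without EpiSC replicate 1 (adjusted p = 0.069).

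Xbp1 and Hspa5 rose. Xbp1 was at 5.24, 5.54, 5.55 and 5.15 in ADE, against 4.01, 4.03 and 4.06 in EpiSC (1.33 ± 0.22, adjusted p = 4.9e-05; 2.52-fold), and Hspa5 at 7.20, 7.47, 7.44 and 6.93 in ADE, against 6.15, 6.11 and 5.96 in EpiSC (1.19 ± 0.27, adjusted p = 0.0011; 2.28-fold). Herpud1 missed the threshold, at 2.52, 2.61, 2.56 and 2.27 in ADE, against 3.54, 3.35 and 3.01 in EpiSC (-0.81 ± 0.33, adjusted p = 0.06). Neural markers also differed in the same arrays: 4 of them summed to 2.24 to 3.22 in ADE, against 5.50 to 5.94 in EpiSC, with Pax6 well above background on no ADE array. The fibroblast or feeder sums overlapped (1.96 to 4.14 in ADE, 4.08 to 4.70 in EpiSC). The part of either marker list in these differences was not tested. Within each of the 2 slides of this set, all 9 called genes kept their direction, as their lack of overlap required.

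Of the 17 tested amino acid supply genes, 16 were lower in ADE and 0 higher (median -2.32), with Cth at -4.61 and the alanine aminotransferase gene Gpt2 at -3.68. Of 12 synthetase genes 10 were lower and 0 higher (median -1.39), led by Mars1 (-2.01) and Cars (-1.99). Of 15 regulators downstream of ATF4 10 were lower and 0 higher, led by Nupr1 (-5.32; well above background on 3 of 4 ADE arrays) and Jdp2, a partner of ATF3 (-4.79). Hypoxia genes, of which 8 of 14 were lower and 0 higher (median -1.72), were lower in the same arrays, including the oxygen sensor gene Egln3 (-3.31) and the kinase gene Pdk1 (-3.22).

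The chaperone and degradation lists had more genes higher than lower in ADE. Of 23 chaperone and folding genes 15 were higher and 2 lower (median 0.74), or 9 and 1 with median centring. Sdf2l1 (1.91) and Creld2 (1.48), both targets of the ER stress response, led the rise, while Ero1a, the oxidase that feeds disulphide formation, was at -2.66. Of 22 degradation and translocation genes 11 were higher and 0 lower (7 and 0 with median centring), led by Derl3 (2.76) and Sec24d (1.56). Of the 13 genes in the sensor list, 2 were higher (Creb3l1 at 3.35 ± 0.39 and Atf6b at 0.85). The 2 lower ones were the cell death genes Bax (-0.54) and Bak1 (-0.52), and with median centring 2 were higher and 0 lower. Of the 15 eIF2 genes 2 were higher (Eif2ak3 at 0.76 ± 0.22 and the heme-sensing kinase gene Eif2ak1 at 0.73). Another 2 were lower (Eif2s2, an eIF2 subunit gene, at -1.35 and Impact at -0.88). With median centring 0 eIF2 genes were higher and 1 lower.

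**Figure D2:**
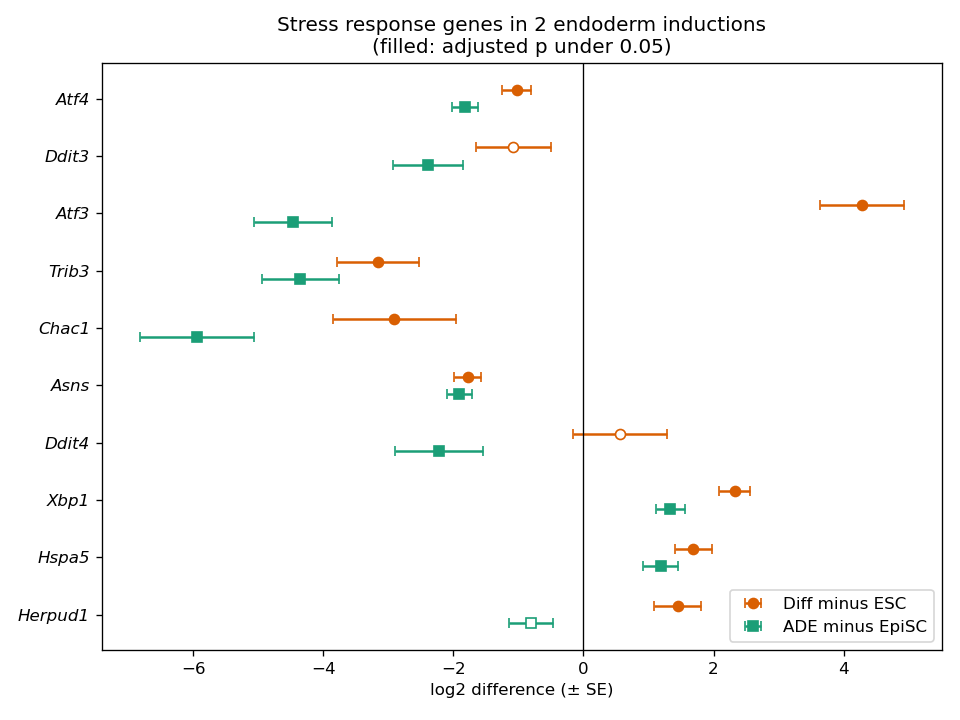
Log2 difference with its SE (horizontal axis) for each of the 10 genes in both endoderm inductions, Diff minus ESC (circles) and ADE minus EpiSC (squares); filled symbols passed the test. Atf3 stands at 4.28 in Diff minus ESC and -4.46 in ADE minus EpiSC, while Trib3, Chac1, Asns and Atf4 lie left of 0 and Xbp1 and Hspa5 right of 0 in both.

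The difference between the inductions was tested in the same model, as Diff minus ESC less ADE minus EpiSC; each side lies in its own array set, so set effects common to both groups of a side drop out. Of the 10 genes 5 passed, all with a positive difference between the inductions. Over all genes 36.8% were called (21.9% higher, 14.9% lower), and 59.5% of calls were higher, or 73.6% with median centring. Atf3 differed by 8.75 ± 0.88 (adjusted p = 6.8e-08) and Herpud1 by 2.26 ± 0.49 (adjusted p = 0.00084), and both kept their calls under all 24 alternatives tried. Ddit4 (2.78 ± 0.99, adjusted p = 0.03) kept its call in 17 of 24, Xbp1 (0.99 ± 0.33, adjusted p = 0.021) in 21 and Atf4 (0.80 ± 0.30, adjusted p = 0.041) in 8. For Ddit3, Trib3, Chac1, Asns and Hspa5 the difference missed the threshold, with adjusted p = 0.21, 0.3, 0.069, 0.77 and 0.35. The starting cells, ESC and EpiSC, lie in different array sets, and their levels were not compared. Among the wider lists, this difference was called positive for 9 of 15 regulators and 8 of 17 amino acid supply genes. So it was for 6 of 12 synthetase genes and 9 of 14 hypoxia genes, against 0, 0, 0 and 1 called negative. A positive difference can be a smaller fall. The median of the amino acid supply genes was -1.31 in Diff minus ESC and -2.32 in ADE minus EpiSC. That of the synthetase genes was -0.53 and -1.39.

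**Figure D3:**
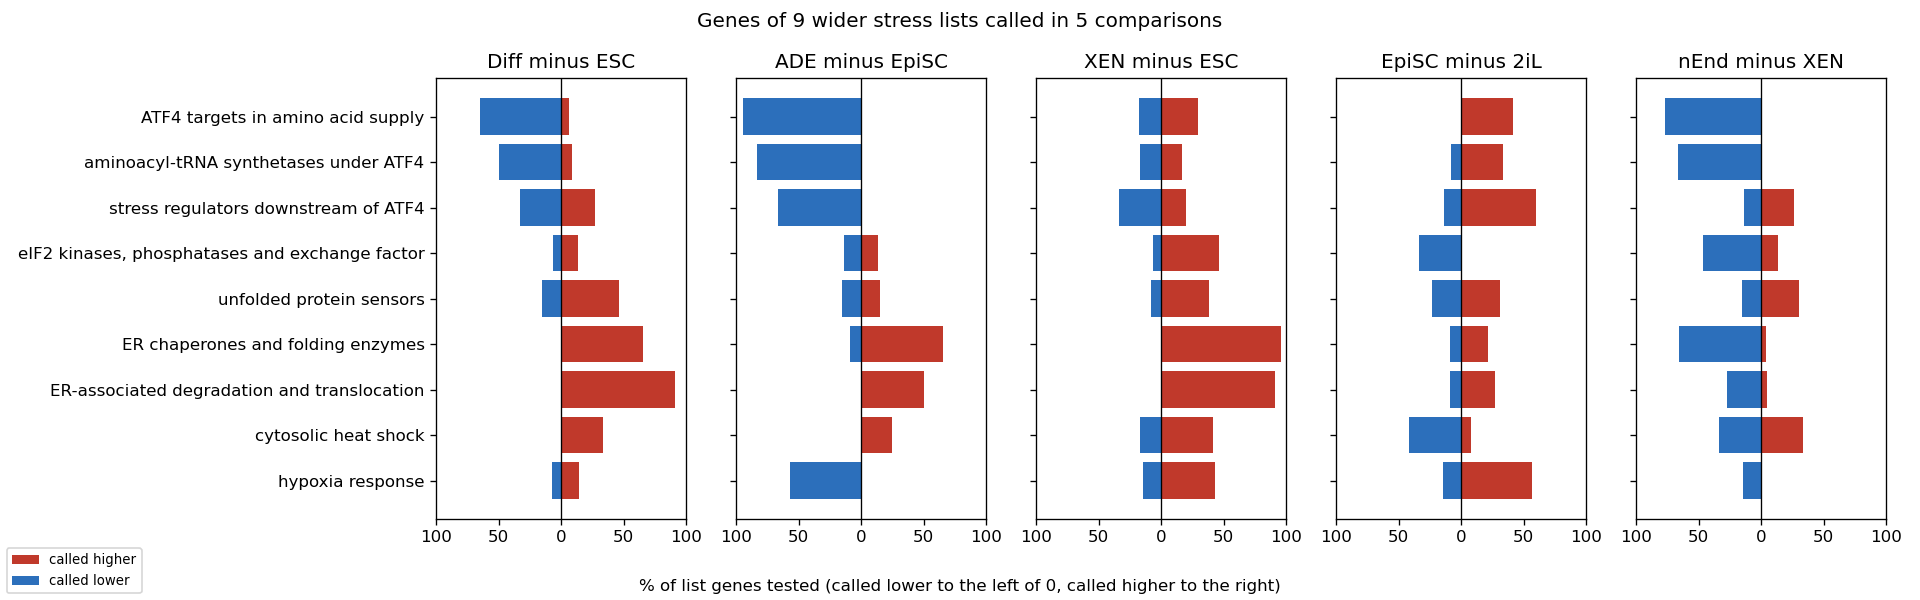
Share of each list's tested genes (horizontal axis, in %) called higher (right of 0) or lower (left of 0) in 5 comparisons, with lists down the page. Amino acid supply genes lie to the left in Diff minus ESC (11 of 17), ADE minus EpiSC (16 of 17) and nEnd minus XEN (13 of 17), and ER chaperones to the right in Diff minus ESC (15 of 23), ADE minus EpiSC (15 of 23) and XEN minus ESC (22 of 23).

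During expansion Trib3 was higher in Mid than in Diff, Asns moved within a narrow range, and Xbp1, Hspa5 and Herpud1 passed the test in neither step. In Mid minus Diff, 2 of the 10 genes passed, where 29.1% of all genes did. Trib3 was at 4.36, 3.09 and 3.78 in Mid, against 1.82, 1.42 and 1.95 in Diff (2.02 ± 0.63, adjusted p = 0.019; 4.04-fold), above Diff on every array. Asns was at 5.73, 5.48 and 5.22 in Mid, against 5.69, 6.12 and 6.35 in Diff (-0.58 ± 0.21, adjusted p = 0.042); 13 of 18 alternatives lost the call, among them median centring (adjusted p = 0.31), and the groups overlapped. Trib3 lost its call without Diff replicate 2, without Mid replicate 1, on the first scan day alone and with slide as a fixed block (adjusted p up to 0.088). Chac1, at 3.88, 2.29 and 3.49 in Mid, lay above Diff on every array but missed the threshold (adjusted p = 0.066). Both called genes kept their direction within each scan day, which for Trib3 followed from its lack of overlap. Within slide 3 Trib3 differed by 2.54 and Asns by 0.04.

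In Late minus Mid, 1 of the 10 genes passed (Asns), where 6.85% of all genes did. Asns was at 6.22, 6.46 and 5.96 in Late, against 5.73, 5.48 and 5.22 in Mid (0.74 ± 0.21, adjusted p = 0.035). Same-numbered Mid and Late arrays deviated together, and with replicate as a block the adjusted p was 0.16 and the count over all genes 0. Trib3 was at 1.54, 2.91 and 1.68 in Late, below every Mid array (-1.70 ± 0.63, adjusted p = 0.11). Chac1 was at 0.92, 2.37 and 0.90 in Late, with replicate 2 inside the Mid range. That replicate was also the highest Late array for Ddit3, at 2.67 against 0.98 and 0.89. Hspa5 was at 7.55, 7.35 and 7.43 in Late, 7.26, 7.15 and 7.09 in Mid and 6.86, 6.84 and 6.90 in Diff: the 3 stages did not overlap, and neither step passed the test (adjusted p = 0.48 for Mid minus Diff and 0.64 for Late minus Mid). Atf3 stayed between 3.10 and 4.94 and Xbp1 between 5.95 and 6.76 on all arrays of the 3 stages, with no call in either step. Asns was higher in Late on the first scan day and within slides 1 and 3, as its lack of overlap required. The second scan day held no Late array.

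XEN cells, an established extraembryonic endoderm line, carried the ER genes at high levels. In XEN minus ESC 4 of the 10 genes were higher and 1 lower, where 52.1% of all genes were called (30.7% higher, 21.4% lower); 58.9% of calls were higher, or 78.4% with median centring. Both comparisons with ESC use the same 3 ESC arrays. Hspa5 was at 8.30, 7.40 and 7.80 in XEN, against 5.09, 5.13 and 5.31 in ESC (2.66 ± 0.29, adjusted p = 4.3e-08; 6.32-fold). Atf3 was at 4.47, 5.25 and 4.25 in XEN, against -1.59, -0.52 and -0.33 in ESC (5.47 ± 0.64, adjusted p = 1.6e-07; 44.3-fold). Xbp1 was higher by 2.41 ± 0.24 (adjusted p = 1.2e-08) and Herpud1 by 1.31 ± 0.36 (adjusted p = 0.0035, or 0.064 with slide as a fixed block). Asns was lower, at 6.41, 6.95 and 7.13 in XEN, against 7.75, 8.08 and 7.68 in ESC (-1.01 ± 0.21, adjusted p = 0.0003), but not with median centring (adjusted p = 0.4) or with slide as a fixed block (adjusted p = 0.069). All 5 called genes kept their direction on each scan day, which followed from arrays without overlap between the groups.

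XEN replicate 1 stood apart in some of the integrated stress genes. Chac1 was at -0.98, 4.08 and 3.67 in the 3 XEN arrays and Trib3 at 1.56, 4.81 and 4.05, while all 3 ESC arrays lay between 3.54 and 3.94 for Chac1 and between 4.26 and 5.28 for Trib3. Neither passed the test (adjusted p = 0.18 and 0.066), and the Chac1 difference of -1.53 was 0.085 without XEN replicate 1. Ddit3 and Ddit4 were also lowest on that array, at -0.09 and 2.69, but Atf3 was not (4.47, against 5.25 and 4.25). The ER lists were higher almost throughout XEN minus ESC: 22 of 23 chaperone genes (median 1.81), with Txndc5 at 2.87 and P4hb, protein disulphide isomerase, at 2.80, and 20 of 22 degradation and translocation genes (median 1.83), with Sel1l at 2.83 and Derl1 at 2.70; 0 of either list were lower. The ATF4 targets were mixed, with 5 of 17 amino acid supply genes higher and 3 lower. The counts were 8 and 2 with median centring, and 2 and 4 under quantile normalization. The glutamine transporter gene Slc38a2 was at 2.31 and the cationic transporter gene Slc7a3 at -7.38.

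nEnd cultures, the mean of Mid and Late, differed from XEN in 2 of the 10 genes, where 41.1% of all genes were called. The test and the list counts took Mid and Late arrays as independent, though same-numbered ones were read as the same series. Asns averaged 5.85 in nEnd and 6.83 in XEN (-0.98 ± 0.18, adjusted p = 0.00013), and Atf4 7.11 in nEnd and 7.61 in XEN (-0.50 ± 0.19, adjusted p = 0.04). Both genes had overlapping arrays, and with replicate as a block only Asns passed (adjusted p = 0.021, against 0.15 for Atf4). That block also tied same-numbered XEN arrays to nEnd, a pairing that is not given. The Atf4 call was kept in 6 of 21 alternatives, its difference was 0.029 under quantile normalization, and the second Atf4 probe gave -0.13. Asns lost its call only with slide as a fixed block (adjusted p = 0.051), among 21 alternatives. Both were lower on each scan day, but within slide 3 Asns differed by -0.43 and Atf4 by 0.02. Hspa5 averaged 7.31 in nEnd and 7.84 in XEN (-0.53 ± 0.25, adjusted p = 0.092). In the lists, 13 of 17 amino acid supply genes (Psat1 at -2.40) and 8 of 12 synthetase genes were lower in nEnd, with 0 higher in either. Of 23 chaperone genes 15 were lower (Ero1a at -2.20, Pdia4 at -1.74) and 1 was higher (Dnajc3 at 1.41). Under quantile normalization 9 amino acid supply, 4 synthetase and 11 chaperone genes were lower, against 0, 1 and 3 higher. The regulators downstream of ATF4 differed from these lists, with 4 of 15 higher in nEnd and 2 lower (median 0.44; 6 and 2 under quantile normalization, 2 and 2 with median centring), and Stc2 at 3.00.

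Among undifferentiated cells, EpiSC had higher levels than 2iL of 6 of the 10 genes, and of these Trib3, Ddit3 and Atf4 passed only narrowly. Over the 10 genes 6 were called higher and 0 lower, where 41.6% of all genes were called (21.5% higher, 20.1% lower). Ddit4 was at 7.88, 6.80 and 6.78 in EpiSC, against 4.51, 2.13 and 4.68 in 2iL (3.38 ± 0.72, adjusted p = 0.00058; 10.4-fold). Atf3 was at 2.90, 2.88 and 3.97 in EpiSC, against -0.48, -2.09 and 0.90 in 2iL (3.81 ± 0.64, adjusted p = 4.2e-05; 14.0-fold). Both kept their calls in 17 of 17 alternatives. Chac1 was at 6.57, 6.49 and 6.13 in EpiSC, against 3.32, 1.77 and 5.05 in 2iL (3.02 ± 0.94, adjusted p = 0.012), and lost its call without 2iL replicate 2 (adjusted p = 0.092) and with slide as a fixed block (adjusted p = 0.05).

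Trib3 (1.59, adjusted p = 0.048), Ddit3 (1.44, adjusted p = 0.049) and Atf4 (0.59, adjusted p = 0.035) passed narrowly in EpiSC minus 2iL and failed in 8 to 9 of 17 alternatives, each of them without 2iL replicate 2 (adjusted p = 0.21, 0.32 and 0.21). Asns, also an ATF4 target, was at 7.84, 7.91 and 8.08 in EpiSC, against 8.49, 8.39 and 8.34 in 2iL, with every EpiSC array below every 2iL array and no call (adjusted p = 0.084). Xbp1, Hspa5 and Herpud1 did not pass (adjusted p = 0.72, 0.35 and 0.16). The cell lines differ between these groups. Fibroblast or feeder markers summed to 4.08 to 4.70 in EpiSC, with 6 of 7 well above background on all its arrays, against 0.81 to 1.50 in 2iL, where Dcn and Postn were well above background on no array, and neural markers to 5.50 to 5.94 in EpiSC, against 2.79 to 4.17 in 2iL; their part in these differences was not tested. Hypoxia genes were higher in EpiSC in 8 of 14 (Egln3 at 3.59) and lower in 2. Within each of the 2 slides the 6 called genes kept their direction, as their lack of overlap between the groups required. The EpiSC arrays are also those of ADE minus EpiSC, and the 2iL arrays those of NACL minus 2iL.

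NACL cells receive the same factors as Diff. Against 2iL, 0 of the 10 genes were called by limma (1, Ddit3, had an unadjusted p under 0.05), where 8.25% of all genes were called. At that share few or no calls are expected among 10 genes, so the count says little about them. The differences ran from -0.28 (Asns) to 1.33 (Ddit4). Replicates within both media spread widely. Chac1 was at 5.46, 5.54, 3.48 and 3.89 in NACL, against 3.32, 1.77 and 5.05 in 2iL, and Ddit4 at 5.55, 6.61, 4.21 and 4.03 in NACL, against 4.51, 2.13 and 4.68 in 2iL. The 2 higher NACL arrays for both genes were those of line HVMC. Within slide 5 Chac1 differed by 2.29 and Ddit4 by 2.14. Within slide 6, with 1 array of each group, they differed by -1.17 and -0.65. With cell line as a block, 0 of the 10 genes passed. Xbp1 was at 3.40 to 4.33 in NACL and 3.66 to 4.27 in 2iL, and Hspa5 at 5.01 to 6.00 in NACL and 5.10 to 6.58 in 2iL, and both genes overlapped between the media.

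Across the 9 group means the 10 genes formed distinct patterns, given here as descriptions. Trib3 and Chac1 had a Pearson r of 0.974, Xbp1 and Hspa5 of 0.921, Atf3 and Herpud1 of 0.902, and Atf4 and Trib3 of 0.900, while Xbp1 and Asns ran opposite (-0.892). Groups within a set share slides and scan days. Within groups the lowest array was the same in 7 of 9 groups for Atf4 and Chac1, and also for Atf4 and Trib3. The highest was the same for Chac1 and Ddit4 in 8 of 9. These were the largest counts over all pairs of the 10 genes, and in groups this small matches also arise by chance. Atf4 and Chac1 shared the highest array in 5 groups, Atf4 and Trib3 in 3, and Chac1 and Ddit4 shared the lowest in 5. Chac1 spread the most between replicates, with an SD of 2.81 in XEN and a median SD of 0.83 over the groups, against a median SD of 0.12 for Hspa5.

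**Figure D4:**
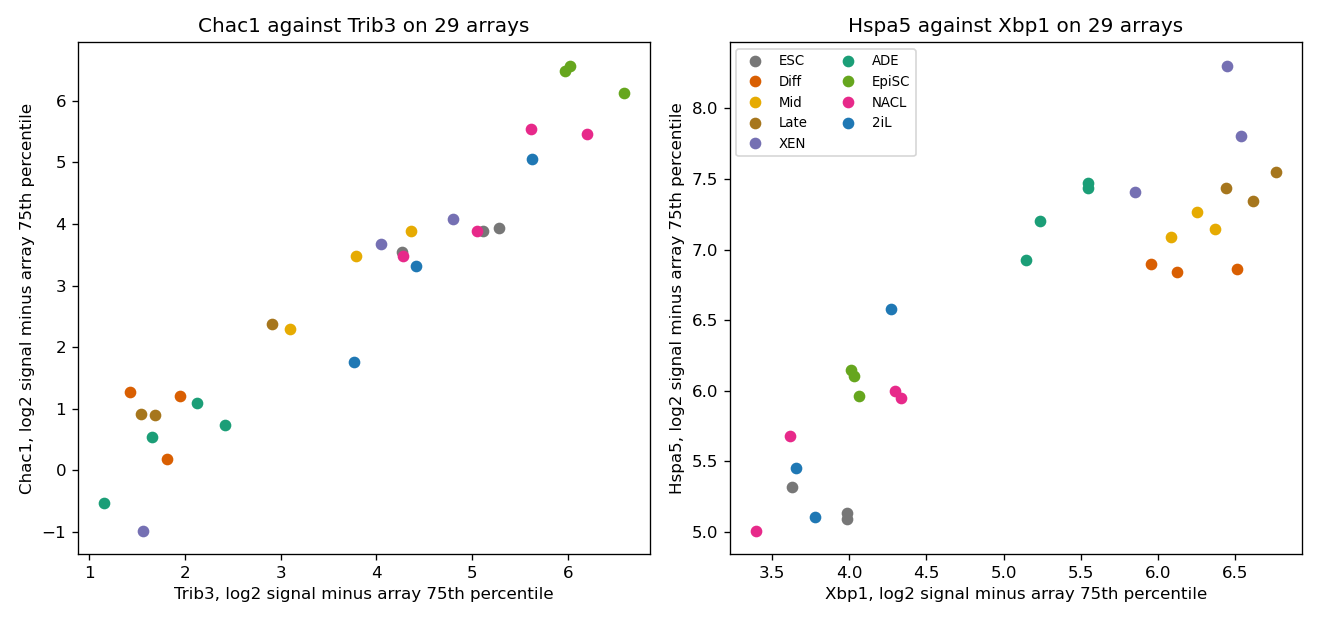
Each dot is 1 of 29 arrays, coloured by group; axes are log2 signal minus the array's 75th percentile, for Chac1 against Trib3 (left) and Hspa5 against Xbp1 (right). XEN replicate 1 lies lowest for Chac1 (-0.98), apart from the other XEN arrays (4.08 and 3.67), and the Diff, Mid, Late, XEN and ADE arrays lie above 5 for Xbp1.

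The order of levels within each array set shows where neighbours overlap. In the first set, ESC was lowest for Atf3, Xbp1, Hspa5 and Herpud1, with no array of the next group reaching it, and the order above ESC overlapped between neighbours for Atf3 and Xbp1. ESC was highest for Atf4, Trib3, Chac1 and Asns, but only for Asns did its arrays stay clear of the next group, XEN. In the second set, EpiSC was highest for every gene except Asns, Xbp1 and Hspa5, and stood clear of the next group for Atf4, Atf3, Chac1 and Ddit4. ADE was lowest for Atf4, Ddit3, Atf3, Trib3, Chac1, Asns and Herpud1, and highest for Xbp1 and Hspa5, where it stood clear of EpiSC.

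Of all genes tested, those whose 9 group means ran closest to each of the 10 were partly genes of the same pathways. The closest to Xbp1 were Gfpt1 (r = 0.995), the first enzyme of the hexosamine pathway, and Tlr6 (0.994), with group means of -6.80 to -2.84. Those closest to Hspa5 were Sec11a (0.986), a signal peptidase subunit, and Manf (0.984), a secreted ER stress protein. Atf4 ran closest to Pck2 (0.967), mitochondrial phosphoenolpyruvate carboxykinase, and Drc3 (0.932). Atf3 ran closest to Anxa2 (0.991) and Pex11g (0.985), Asns to Nup43 (0.981) and Kntc1 (0.979), and Ddit3 to Rsbn1l (0.940) and 1700030K09Rik (0.917). Ddit4 ran closest to Akr1e1 (0.964) and Sntg2 (0.954), and Herpud1 to the class I histocompatibility genes H2-K2 (0.966) and H2-K1 (0.964). Trib3 and Chac1 were each other's closest gene, followed for both by Pcif1 (0.958 and 0.960).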

How the data were processed

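Cy3-labelled RNA of 29 samples was measured on one-colour Agilent arrays, 1 per sample, per the labels' protocols. The deposited files give an intensity for every spot, written by Agilent Feature Extraction and already background-corrected per the file headers (version 9.1 per the submitters' processing notes; 11.0.1.1 for the first array set and 12.0.1.1 for the second per the file headers). The authors also deposited a matrix, read as log2 values with medians of 5.94 to 5.949 per column and correlations of 0.909 to 0.937 with the log2 scanner signal; how it was scaled and centred is not given in the sources used here, and only an alternative used it.

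Irregular spots (132 to 243 of 59305 per array) were dropped, spots of a probe were averaged, and log2 signals were set against each array's 75th percentile (137 to 323 intensity units); no array had a saturated spot (0 on every array). Of 55681 probes, 27669 were named through accessions (GRCm38.p6 tables, used for names and promoters, since the headers name mm9), and 33 with conflicting names were left unused. The probe with the highest mean stood for a gene, and a gene entered the test if 1 or more groups had it well above background on each of their arrays. One limma model (3.58.1, R 4.3.3, data.table version 1.17.8) of the 9 group means over all arrays, skipping 36 missing values, gave each difference; calls are adjusted p under 0.05 (Benjamini-Hochberg over 16332 genes). Python 3.11.15, numpy 2.4.6, pandas 2.3.3 and matplotlib 3.10.9 were used. On simulated data for Diff minus ESC over 16332 genes, 78 of 100 genes changed by 2 on the log2 scale and 25 of 100 changed by 1 were recovered. The number of arrays limits the precision.

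The 10 genes, the wider lists and the marker lists were chosen with earlier results of these data known. From the lists, the 2 called genes with the largest difference in each direction were eligible to be named, and they are named only where a list is described gene by gene; for likeness, the 2 genes with the highest r. Lists are described by counts and medians. Same-numbered Mid and Late arrays correlated in their deviations from group means at 0.217, 0.129 and 0.141. The design text ties nEnd replicates to separate series, so replicate numbers were taken to pair these 2 groups. Same-numbered ADE and EpiSC arrays correlated at 0.306, -0.124 and 0.315, but whether their numbers pair is not given. Alternatives changed the scaling, background step, filter, probe choice, arrays used and blocks; the planned normexp step used the median spot signal, since the files hold no mean signal.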

Additional observations from a re-analysis of the deposited data

Results flagged for a closer look

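Asns in ADE had 1 array apart from the other 3 (6.27 in ADE replicate 2, against 5.95, 5.93 and 5.99); the gap was 0.831 of the group's range, above Dixon's critical value for 4 arrays. Chance alone marks about 1 in 20 groups this way, and the Asns difference between ADE and EpiSC was called in every alternative tried, 18 of 18.

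For 5 genes the change in Diff minus ESC differed from that in ADE minus EpiSC by the test of the difference itself. Atf3 differed by 8.75 on the log2 scale, higher on every Diff array than on every ESC array and lower on every ADE array than on every EpiSC array. Ddit4 differed by 2.78, with overlapping arrays in Diff and ESC and lower levels on all 4 ADE arrays. Herpud1 differed by 2.26, higher on every Diff array and lower on every ADE array. Xbp1 differed by 0.991, with a larger rise in Diff than in ADE, and Atf4 by 0.796, with a smaller fall in Diff than in ADE. ESC and EpiSC, the starting cells, lie in different array sets, so their levels were not tested against each other.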

How the results depend on the processing

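Diff minus ESC (7 to 8 of the 10 genes called), ADE minus EpiSC (8 to 10), XEN minus ESC (4 to 7) and NACL minus 2iL (0 throughout) stayed within 1.5 times their reported counts in every alternative. The other counts moved. In Late minus Mid (1 called) the count was 0 under median centring, quantile normalization, the series matrix, no filter on dim probes, the compared groups alone, the replicate block, the first scan day alone and slide as a fixed block, and 0 to 1 with an array left out. In Mid minus Diff (2 called) it was 4 under quantile normalization and the series matrix, 1 under median centring, no filter, the replicate block and slide as a random block, 0 on the first scan day and with slide as a fixed block, and 0 to 2 with an array left out. In nEnd minus XEN (2 called) it was 4 under median centring, 1 under normexp, no filter, the mean of probes, the compared groups alone, the replicate block, the first scan day, slide as a fixed block and scan day as a block, and 1 to 3 with an array left out. In EpiSC minus 2iL (6 called) it was 2 with slide as a fixed block and 3 to 7 with an array left out, and in the difference between inductions (5 called) 3 to 5 with an array left out. The cause was not tested. The first scan day alone and slide as a fixed block were chosen after seeing the data.

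Differences that changed sign were Chac1 in XEN minus ESC (0.085 without XEN replicate 1, -2.45 without XEN replicate 2, which passed, and 0.36 with slide as a fixed block), Trib3 in XEN minus ESC (0.12 with slide as a fixed block) and in nEnd minus XEN (0.090 without XEN replicate 2, and -1.53, which passed, without XEN replicate 1), and Atf4 in nEnd minus XEN (0.029 under quantile normalization). Another 18 uncalled differences under 0.5 in size changed sign in some alternative; their sizes are not printed here. Whether replicate numbers pair samples outside Mid and Late is not given in the sources used here. With the replicate block 8 genes were called in Diff minus ESC, 10 in ADE minus EpiSC and 5 in EpiSC minus 2iL. The counts were 6 in XEN minus ESC, 0 in NACL minus 2iL and 5 in the difference between inductions. Over all genes the calls ranged from 4570 to 7310 in Diff minus ESC (6924 as reported), 962 to 5088 in Mid minus Diff (4759), 0 to 1540 in Late minus Mid (1118), 247 to 1714 in NACL minus 2iL (1348) and 5593 to 8966 in XEN minus ESC (8514). Median centring moved the median of all genes by 0.36 in Diff minus ESC, 0.64 in XEN minus ESC, 0.12 in EpiSC minus 2iL, 0.39 in the difference between inductions, -0.35 in nEnd minus XEN and -0.16 in Late minus Mid. The share of calls that were higher was 74.1% under it in Diff minus ESC (55.4% as reported), 78.4% in XEN minus ESC (58.9%), 24.0% in nEnd minus XEN (40.4%), 23.4% in Late minus Mid (55.2%) and 73.6% in the difference between inductions (59.5%).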
